A study of Mus musculus with 6 samples.

Results

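The genes described here are ND1, ND2, ND4, ND5, COX1, COX2, COX3, ATP6 and CYTB, which code for subunits of the respiratory chain and ATP synthase and lie in the mitochondrial genome. They are 9 of the 23557 genes measured in CT26 tumors, and 9 of the 13 mitochondrial protein-coding genes in that table. They were picked by symbol, because their share of the counts had been seen to be high in some H89 tumors. The values that follow for H89 against NaCl are therefore a description of these 9 genes, and no test was made of them.

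CT26 is a colon carcinoma line from the BALB/c strain, and 500000 cells were placed under the skin of young female Balb/c mice. H89, an inhibitor of protein kinase A and of several other kinases, was injected into the peritoneum at 10 mg/kg, 2 times a week, in 3 mice, and 3 control mice received NaCl. All tumors were removed on day 14, frozen, and total RNA of each was sequenced as 1 library on a BGIseq500 machine. The labels name no engineered allele, and each tumor holds the cancer cells of 1 line together with the host's own cells.

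Mitochondria keep a small circular genome of their own, whose messenger RNAs are all for subunits of complexes I, III, IV and V, while complex II and most subunits of the other complexes come from nuclear genes. Both strands are transcribed as long precursors by the polymerase Polrmt with the factors Tfam and Tfb2m, and the messengers are released by cutting out the tRNAs that lie between most genes. A single precursor thus yields many messengers, whose levels then depend on their stability, and a short A tail is added that in several genes also completes the stop codon. Cells with a high demand for oxidative phosphorylation, such as muscle, hold much mitochondrial RNA.

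The ends of the 9 reading frames are shown because these genes have no intron and most of their messengers have little untranslated sequence. The last 27 bases are given 5′ to 3′ on the + strand, from GENCODE M21 transcripts on GRCm38, which follow the reference mouse strain and not BALB/c. Capitals mark the stop codon, or the single T to which the A tail must add.
ND1, chrM:3681-3707: acagcgggagtaccaccatacataTAG
ND2, chrM:4925-4951: cccctagccccccaactaattaccTAG
COX1, chrM:6846-6872: gaaccaacctatgtaaaagtaaaaTAA
COX2, chrM:7670-7696: gaaaactgatctgcttcaataattTAA
ATP6, chrM:8581-8607: agcctatatctacatgataatacaTAA
COX3, chrM:9364-9390: acgtctccatttattgatgaggatctT
ND4, chrM:11518-11544: caaaactaattacaggcctgacaataT
ND5, chrM:13539-13565: atcttatactcaattaatctcgagTAA
CYTB, chrM:15262-15288: aagacaaaatactaaaattatatccaT

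COX3, ND4 and CYTB ended in a lone T, and the other 6 genes carried a full stop codon. Some neighbouring reading frames share bases, and 2 such stretches are shown because a read from one of them can belong to either gene. Capitals mark the shared bases, 43 in ATP8 and ATP6 and 7 in ND4L and ND4.
ATP8 and ATP6, chrM:7912-7984: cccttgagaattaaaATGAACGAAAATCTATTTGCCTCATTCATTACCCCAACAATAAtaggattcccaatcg
ND4L and ND4, chrM:10152-10188: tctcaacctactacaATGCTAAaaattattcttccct

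ATP6 and COX3 also shared 1 base, and ND5 overlapped ND6, which is read from the other strand, by 14 bases. In the order of the mitochondrial genome the full genes are ND1 (chrM:2751-3707), ND2 (chrM:3914-4951), COX1 (chrM:5328-6872), COX2 (chrM:7013-7696), ATP6 (chrM:7927-8607), COX3 (chrM:8607-9390), ND4 (chrM:10167-11544), ND5 (chrM:11742-13565) and CYTB (chrM:14145-15288). All are on the + strand, and their G+C content ran from 35.6% to 39.9%.

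The deposited values are estimated read counts, which summed to between 27067349 and 31958793 per tumor, and 16482 to 17073 genes had a count above 0 in a tumor. Levels are given as counts per 1000000 counts of the tumor (CPM). Of 9 markers of CT26 and colon epithelium, 7 passed the filter of a mean of 0.5 CPM, and Epcam and Cdx2 did not. Krt8 was at 0.148 to 2.14 CPM, whereas the growth factor gene Ereg was at 71.4 to 234 CPM. In bulk tumors, fewer cells of a type and less RNA per cell cannot be told apart, and this holds for every level below.

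Together, the 9 genes took up 4.72%, 5.93% and 4.86% of all counts in the NaCl tumors and 10.7%, 9.63% and 4.78% in H89 tumors 1, 2 and 3. H89 tumors 1 and 2 stood above every NaCl tumor, and H89 tumor 3 lay within the NaCl range. The NaCl tumors had a mean share of 5.17% ± 0.661 (SD, n = 3), and the mean of the H89 tumors was 8.37% ± 3.15 (SD, n = 3). Relative to the NaCl mean, the share was 2.07-fold, 1.86-fold and 0.925-fold in H89 tumors 1, 2 and 3. The counting error was small beside this spread, with a half-width of at most 0.0113 percentage points for the 95% Wilson interval of any tumor, an interval that covers counting error only. Without H89 tumor 3, the difference in mean share between the groups was 4.99 percentage points, and without H89 tumor 1 it was 2.04, against 3.20 with all tumors.

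**Figure D1:**
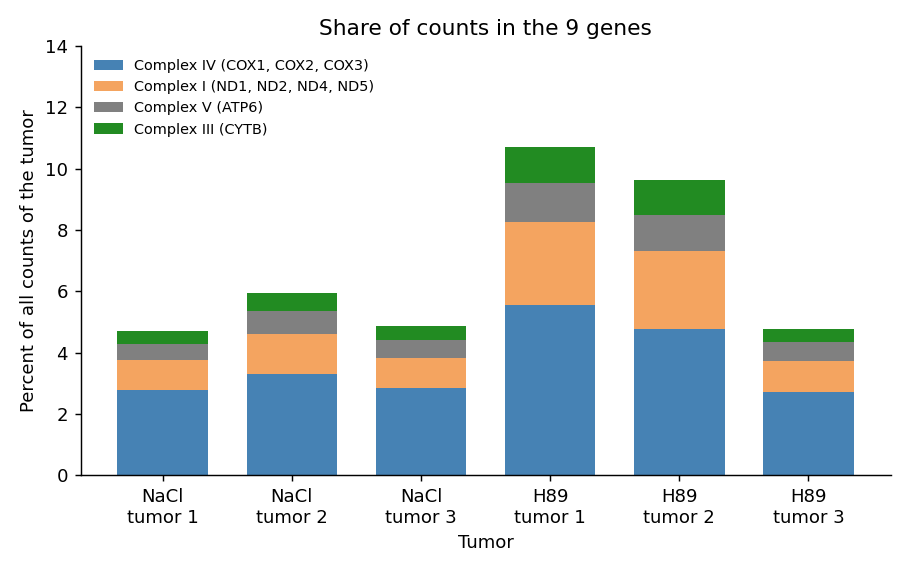
Percent of all counts of each tumor (y axis, from 0) taken by the 9 mitochondrially encoded genes, stacked by respiratory complex, for 3 NaCl and 3 H89 tumors (x axis). The bars of H89 tumors 1 and 2 reach 10.7% and 9.63%, and the other 4 bars lie between 4.72% and 5.93%.

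Complex I, the NADH dehydrogenase that feeds electrons into the chain, has its membrane arm built around the ND proteins. ND1, which sits where the membrane arm meets the peripheral arm, was at 3639, 4892 and 3397 CPM in the NaCl tumors and at 8839, 8152 and 3274 CPM in H89 tumors 1, 2 and 3. ND2, one of the proton-pumping subunits, was at 1611, 2231 and 1611 CPM in NaCl and at 4711, 4346 and 1772 CPM in H89. Both genes were well above the NaCl tumors in H89 tumors 1 and 2, while H89 tumor 3 was just under the lowest NaCl tumor for ND1 and inside the NaCl range for ND2. ND4, another proton-pumping subunit, was at 2840, 3871 and 3025 CPM in NaCl and at 8668, 7960 and 3238 CPM in H89. ND5, the subunit at the far end of the membrane arm, was at 1487, 1955 and 1702 CPM in NaCl and at 4913, 4776 and 1737 CPM in H89. The ND4 and ND5 values of H89 tumor 3 lay between those of the NaCl tumors. The fitted log2 fold changes of these 4 genes were 0.71 (SE 0.35) for ND1, 0.94 (SE 0.35) for ND2, 0.98 (SE 0.35) for ND4 and 1.10 (SE 0.36) for ND5, the last being the highest of the 9.

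CYTB codes for cytochrome b, the core of complex III, which passes electrons from ubiquinol to cytochrome c. It was at 4221, 5772 and 4418 CPM in NaCl and at 11705, 11396 and 4459 CPM in H89 tumors 1, 2 and 3. The first 2 H89 tumors were above all NaCl tumors and the third was between them, with a fitted log2 fold change of 0.88 (SE 0.35).

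Complex IV, the cytochrome c oxidase, hands the electrons to oxygen. COX1, its catalytic subunit, had the highest mean level of all genes in the table, at 16069, 18273 and 15748 CPM in NaCl and 32932, 27899 and 15973 CPM in H89. COX2, which receives electrons from cytochrome c, was at 5991, 7415 and 6398 CPM in NaCl and at 12153, 10697 and 5657 CPM in H89. COX3, the third subunit of the core, was at 5875, 7276 and 6436 CPM in NaCl and at 10344, 9234 and 5629 CPM in H89. In H89 tumor 3, COX1 was within the NaCl range and COX2 and COX3 were below the lowest NaCl tumor. The fitted log2 fold changes were 0.56 (SE 0.26) for COX1, 0.47 (SE 0.27) for COX2 and 0.31 (SE 0.23) for COX3, the last being the lowest of the 9. When the tumors were brought to 1 common distribution by quantile normalization, these 3 values were 0.20, 0.12 and 0.0036.

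ATP6 codes for the subunit of complex V, the ATP synthase, through which protons return. It was at 5419, 7586 and 5914 CPM in NaCl and at 12718, 11835 and 6063 CPM in H89 tumors 1, 2 and 3, again with the third H89 tumor between the NaCl tumors. Its fitted log2 fold change was 0.64 (SE 0.28). In 0 of the 9 genes were all H89 tumors above all NaCl tumors, where 20.4% of the genes tested were higher in H89 without overlap. Without H89 tumor 3, the 9 fitted values ran from 0.54 (COX3) to 1.46 (ND5), and without H89 tumor 1 from 0.09 (COX3) to 0.84 (ND5).

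**Figure D2:**
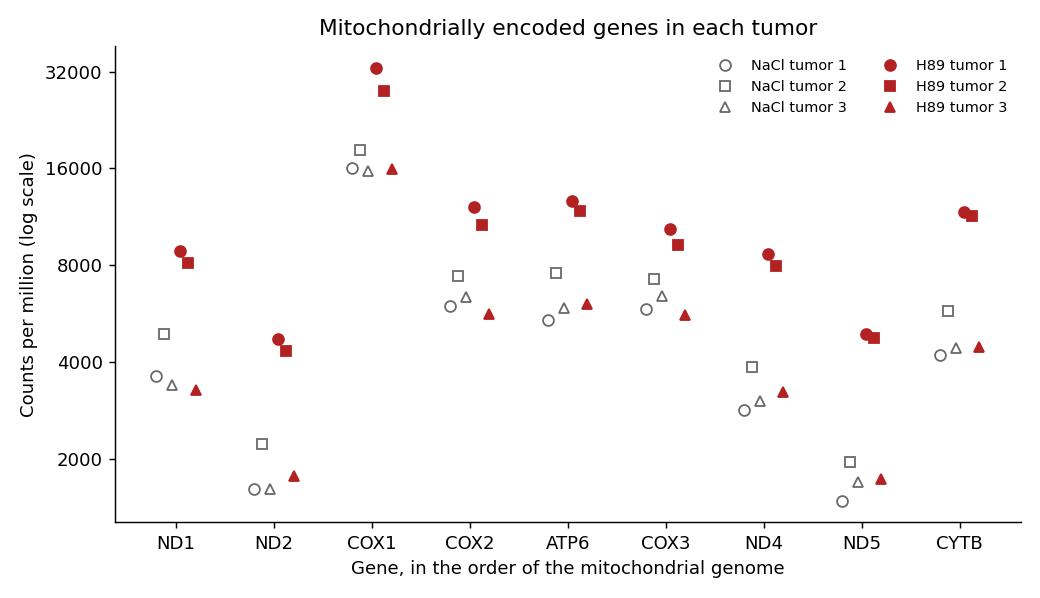
CPM (y axis, log scale) of the 9 genes in the order of the mitochondrial genome (x axis). Open grey symbols are the NaCl tumors, filled red symbols the H89 tumors, and the symbol's shape gives the tumor number. For every gene the red circle and square stand above the grey symbols, and the red triangle, H89 tumor 3, lies among or just under them.

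The 9 genes varied together from tumor to tumor. Over the 6 tumors, Pearson's r between pairs of them ran from 0.962 to 0.999 (36 pairs, log2 level per 1000000 counts outside the 9 genes), and all pairs share the same 6 libraries. Within NaCl, the coefficient of variation was 8.23% (COX1) to 20.2% (ND1), with a median of 16.9%, and within H89 it was 29.3% (COX3) to 47.1% (ND5), with a median of 44.4%. The 2055 nuclear genes with a mean of at least 100 CPM had medians of 7.35% and 7.96% and reached 69.3% and 70.8%. The spread within H89 is part of what the 9 genes were chosen on, and NaCl tumor 2 had the highest NaCl value in each of the 9.

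The size of the difference was not the same for all members, and it is given here by stretches of the mitochondrial genome that were set after the folds had been seen. In H89 tumor 1, the fold over the NaCl mean was 2.22 and 2.59 for ND1 and ND2, between 1.58 and 2.02 for the adjoining genes COX1, COX2, ATP6 and COX3, and between 2.44 and 2.87 for ND4, ND5 and CYTB. In H89 tumor 2, the same 3 stretches were at 2.05 and 2.39, 1.41 to 1.88, and 2.37 to 2.79. In H89 tumor 3 the folds ran from 0.823 (ND1) to 1.01 (ND5), with ND4 at 0.998, COX2 at 0.857 and COX3 at 0.862. COX3 was the lowest and ND5 the highest of the 9 in both of the first 2 H89 tumors.

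**Figure D3:**
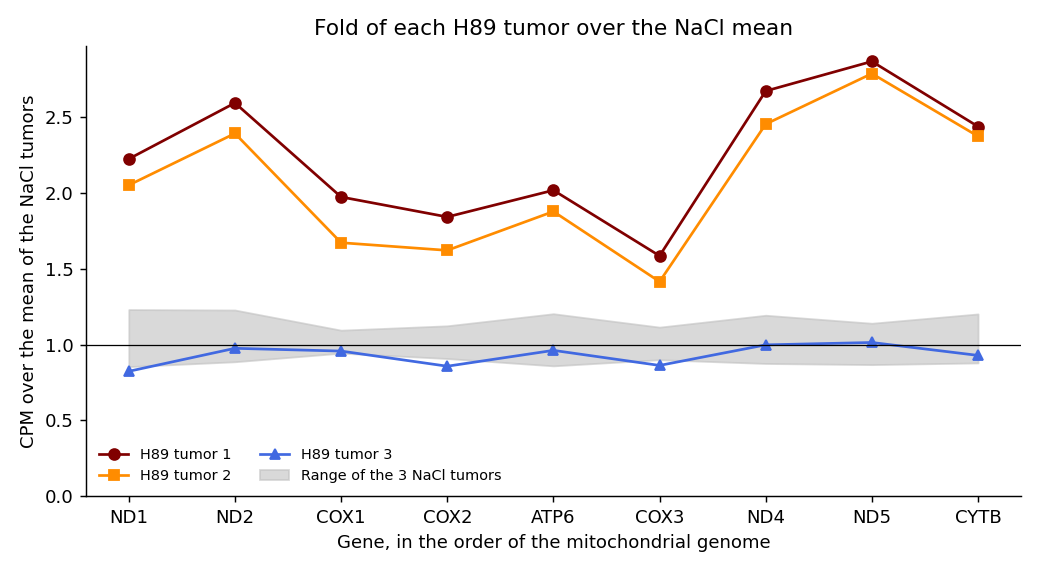
CPM of each H89 tumor divided by the mean of the 3 NaCl tumors (y axis, from 0) for the 9 genes in genome order (x axis). The grey band is the range of the NaCl tumors. The lines of H89 tumors 1 and 2 dip together over COX1, COX2, ATP6 and COX3 and peak at ND5 with 2.87 and 2.79, and that of H89 tumor 3 stays between 0.823 and 1.01.

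The make-up of the mitochondrial counts differed accordingly. The 4 ND genes made up 20.3%, 21.8% and 20.0% of the counts of the 9 genes in NaCl and 25.4%, 26.2% and 21.0% in H89 tumors 1, 2 and 3. The 3 COX genes made up 59.2%, 55.6% and 58.8% in NaCl and 51.8%, 49.7% and 57.0% in H89. H89 tumor 3 was within the NaCl range for both sums. For single genes, the shares of ND4 (6.02% to 6.53% in NaCl, 6.77% to 8.27% in H89) and ND5 (3.15% to 3.50% and 3.63% to 4.96%) were higher in all H89 tumors than in all NaCl tumors. Those of COX2 (12.5% to 13.2% and 11.1% to 11.8%) and COX3 (12.3% to 13.2% and 9.59% to 11.8%) were lower in all H89 tumors, while the other 5 genes overlapped. The 9 shares of a tumor add up to the whole, so a higher share of some genes lowers that of others. They are thus not separate results, and no share over all genes is at hand for this measure.

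Levels of different genes can be set side by side only per length, here as CPM per 1000 bases of coding length, and the order was as follows in NaCl. COX1 was at 10807 ± 890, COX2 at 9651 ± 1072, ATP6 at 9260 ± 1667 and COX3 at 8328 ± 899 (SD, n = 3), and the ranges of neighbours among these 4 overlapped. CYTB at 4199 ± 738 and ND1 at 4154 ± 838 formed the next pair, with overlapping ranges that did not reach those of COX3 or ND4. ND4 at 2355 ± 399 and ND2 at 1751 ± 345 also overlapped, and ND5 at 940 ± 128 was under every ND2 value. In H89 the order was the same apart from ATP6 standing above COX2, and the ranges of all neighbours overlapped. The level of COX1 per length was 12.8, 11.0 and 10.9 times that of ND5 in the NaCl tumors and 7.91, 6.90 and 10.9 times in H89 tumors 1, 2 and 3. Over the 9 genes, which share the same libraries, Spearman's rho of the log2 fold change was -0.85 with the NaCl level per length, which enters both values, 0.63 with coding length and -0.60 with G+C content. Outside the 9, ND3, ND6, ATP8 and ND4L were at 1618, 1858, 1909 and 333 CPM per 1000 bases in NaCl. Their fitted log2 fold changes were 0.41, 0.23, 1.00 and 1.70, and the ND4L counts are divided ones, as described below.

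Copies of mitochondrial sequence in the nuclear genome bear on these counts, since reads that fit a gene and its copy are divided by the quantifier. Of all words of 31 bases in each gene, other GENCODE M21 genes shared 100% in COX2, 99.9% in COX3, 99.5% in ATP6, 63.9% in COX1, 62.8% in ND4, 16.8% in ND5, 13.5% in ND2, 6.55% in CYTB and 0% in ND1. None of those other genes is among the genes of the table used here. Over the 9 genes, Spearman's rho between this percentage and the log2 fold change was -0.65, with ND4 high on both and COX3 low in fold, and the part of such copies in the folds was not tested.

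The other 4 mitochondrial protein-coding genes are given for comparison and, like the 9, without a test. ND3, a small subunit of complex I, was at 480, 652 and 557 CPM in NaCl and at 961, 947 and 418 CPM in H89 tumors 1, 2 and 3. ATP8, which neighbours ATP6, was at 291, 508 and 369 CPM in NaCl and at 825, 1115 and 486 CPM in H89. ND6, the only protein-coding gene of the opposite strand, was at 914, 1069 and 909 CPM in NaCl and at 1619, 1323 and 571 CPM in H89. All 3 were above the NaCl tumors in H89 tumors 1 and 2, and in H89 tumor 3 ND3 and ND6 were below every NaCl tumor. ND4L was at 89.9, 121 and 85.5 CPM in NaCl and at 435, 431 and 131 CPM in H89, the only one of the 13 genes whose groups did not overlap. Its counts were equal in every tumor to those of Gm10222, a nuclear gene of 294 bases (chr1:24612407-24612700, - strand) in which 294 of 294 aligned bases match ND4L, so each value is a divided one. Pearson's r with the summed 9 genes over the 6 tumors was 0.970 for ND4L, 0.964 for ND3, 0.918 for ATP8 and 0.880 for ND6. All 13 genes together took 4.89% to 6.16% of the counts in NaCl and 11.1%, 10.0% and 4.94% in H89.

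The nuclear genes of the same complexes did not share the high values of H89 tumors 1 and 2. Their members were compared with the edgeR quasi-likelihood test over all 13118 genes that passed the filter, in which 1.59% of genes were called at a Benjamini-Hochberg adjusted p under 0.05, 0.861% as higher and 0.724% as lower in H89. Of 81 nuclear genes of complexes I to V, 0 were called higher and 1 was called lower, 8 had a positive and 73 a negative log2 fold change, and their median was -0.15 beside 0.004 over all genes. At an unadjusted p under 0.05, 1 was higher and 22 were lower, where 13.1% and 11.9% of all genes were, and DESeq2 called 0 higher and 11 lower, against 4.75% and 5.68% of its 13350 genes. These shares over all genes are to be set beside the counts of every list below. The gene called was Cox6a2, a complex IV subunit known from heart and skeletal muscle, which was at 6.33, 6.95 and 8.97 CPM in NaCl and at 2.56, 1.81 and 2.00 CPM in H89. All H89 tumors were below all NaCl tumors, and its log2 fold change was -1.87 (SE 0.23, adjusted p = 0.0407). This call was lost when any 1 tumor was left out.

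By complex, the median log2 fold change was -0.13 over 36 nuclear genes of complex I, -0.08 over 4 of complex II, -0.24 over 9 of complex III, -0.22 over 15 of complex IV and -0.22 over 17 of complex V. In edgeR, 0 genes of complexes I, II, III and V were called. At an unadjusted p under 0.05, 1 gene of complex I was higher and 7 were lower, 0 of complex II were either, and 3 of complex III and 8 of complex V were lower, while DESeq2 called 4, 0, 1 and 3 lower and 0 higher. Ndufb11, an accessory subunit of complex I, was at 122, 124 and 128 CPM in NaCl and at 106, 105 and 106 CPM in H89 (log2 fold change -0.31, SE 0.07, edgeR adjusted p = 0.0775). Uqcrq, a small subunit of complex III, was at 132, 152 and 159 CPM in NaCl and at 120, 104 and 100 CPM in H89 (log2 fold change -0.52, SE 0.12, edgeR adjusted p = 0.0689). Both missed the threshold, and in both the groups did not overlap, where 10% of the genes tested were lower in H89 without overlap. Cox7a2l, which takes part in joining complexes III and IV, was at 298, 287 and 332 CPM in NaCl and at 223, 216 and 250 CPM in H89 (log2 fold change -0.48, SE 0.09, edgeR adjusted p = 0.0504). Sdhd, a membrane anchor of complex II, was at 71.1, 73.7 and 75.2 CPM in NaCl and at 66.8, 73.2 and 72.2 CPM in H89, with overlapping groups (log2 fold change -0.12, SE 0.07, edgeR adjusted p = 0.316).

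Within each tumor, the summed CPM of the mitochondrial genes of a complex was divided by that of its nuclear genes. Over complexes I, III, IV and V, with 9 mitochondrial and 79 nuclear genes, this ratio was 5.41, 6.30 and 5.27 in NaCl and 12.2, 11.6 and 6.02 in H89 tumors 1, 2 and 3. H89 tumors 1 and 2 were again above all NaCl tumors and H89 tumor 3 within their range. The summed nuclear part was 9115 ± 362 CPM over the NaCl tumors and 8327 ± 414 CPM over the H89 tumors (SD, n = 3 each), with 8767 CPM in H89 tumor 1, 8268 in H89 tumor 2 and 7945 in H89 tumor 3. The nuclear sum of H89 tumor 1 was within the NaCl range of 8708 to 9401 CPM, and those of H89 tumors 2 and 3 were below it. CPM are taken over all counts, so a high share of the 9 genes lowers every nuclear CPM, while the ratio is not affected. By complex, the ratio in H89 tumors 1 and 2 was 11.6 and 11.8 for complex I (4.21 to 5.45 in NaCl), 13.4 and 13.8 for complex III (4.73 to 6.05), 27.6 and 25.9 for complex IV (13.5 to 15.1) and 3.57 and 3.42 for complex V (1.53 to 1.95). In H89 tumor 3 it was 4.86, 5.73, 15.5 and 1.82, of which the complex IV value alone was above the NaCl range.

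**Figure D4:**
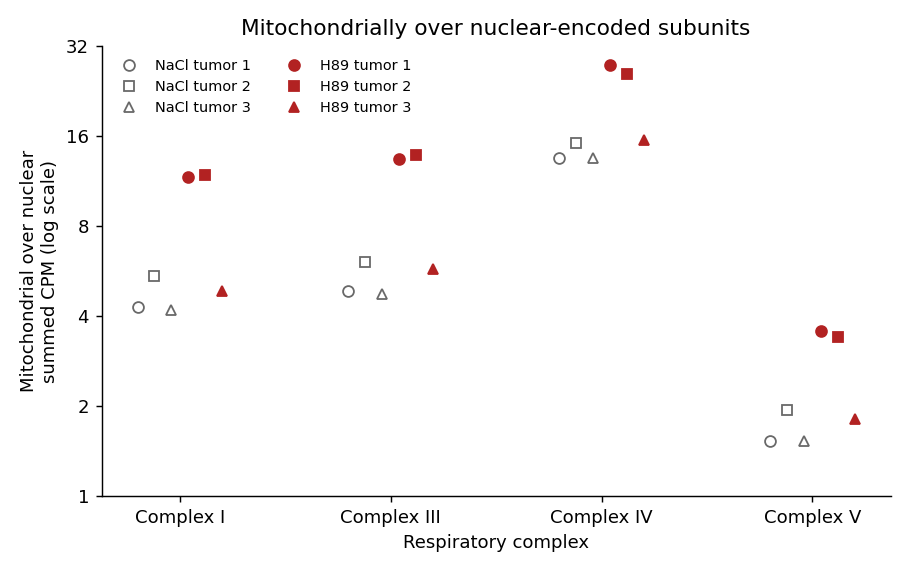
Summed CPM of the mitochondrially encoded genes of a complex over that of its nuclear-encoded genes (y axis, log scale) for complexes I, III, IV and V (x axis). Open grey symbols are NaCl tumors and filled red symbols H89 tumors. In each complex the red circle and square, H89 tumors 1 and 2, stand above the grey symbols, and the red triangle, H89 tumor 3, lies among them or, in complex IV, just above them.

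The machinery that copies and transcribes the mitochondrial genome was represented by 20 genes. Of these, edgeR called 0, with 1 higher and 2 lower at an unadjusted p under 0.05, a median log2 fold change of 0.10, and 1 called lower by DESeq2. Polrmt, the mitochondrial RNA polymerase, was at 36.6, 40.1 and 32.6 CPM in NaCl and at 42.8, 40.0 and 34.8 CPM in H89. Tfam, which packs mitochondrial DNA and starts its transcription, was at 25.5, 32.3 and 29.9 CPM in NaCl and at 29.8, 32.2 and 27.5 CPM in H89. Both overlapped between groups, and they are shown for their role, chosen after their values were seen. The 3 genes with the smallest p were Twnk, Top1mt and Mterf3. Twnk, the helicase of mitochondrial DNA, had a log2 fold change of -0.34 (SE 0.10, edgeR adjusted p = 0.104), Top1mt, a topoisomerase, one of -0.41 (SE 0.14, edgeR adjusted p = 0.135), and Mterf3, a factor that represses transcription, one of 0.24 (SE 0.10, edgeR adjusted p = 0.184).

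Among 22 genes for cutting, tailing and turnover of mitochondrial RNA, 1 was called higher and 0 lower, the median log2 fold change was 0.00, and DESeq2 called 1 higher and 1 lower. The gene called was Pnpt1, the polynucleotide phosphorylase that degrades and helps import RNA in mitochondria and is also known as an interferon-induced gene. It was at 27.5, 33.9 and 27.2 CPM in NaCl and at 52.6, 49.7 and 54.0 CPM in H89, with a log2 fold change of 0.75 (SE 0.10, edgeR adjusted p = 0.0407). All H89 tumors were above all NaCl tumors, and H89 tumor 3, where the 9 mitochondrial genes were at the NaCl level, had the highest value. The call was lost when any 1 tumor was left out. Hsd17b10, a subunit of the nuclease that cuts at the 5′ end of tRNAs, was at 79.6, 85.1 and 86.1 CPM in NaCl and at 66.6, 67.9 and 64.1 CPM in H89 (log2 fold change -0.40, SE 0.08, edgeR adjusted p = 0.0513). Lrpprc, which stabilises mitochondrial messengers, was at 54.5, 61.0 and 60.8 CPM in NaCl and at 67.8, 77.5 and 73.9 CPM in H89 (log2 fold change 0.24, SE 0.08, edgeR adjusted p = 0.120). These 2 genes did not overlap between groups and missed the threshold, and they differed from the 9 mitochondrial genes in that H89 tumor 3 was on the side of the other H89 tumors.

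Translation of the messengers was represented by 78 genes of the mitochondrial ribosome and 15 translation factors, and edgeR called 0 of either list. Over all genes, 11.9% were lower and 13.1% higher at an unadjusted p under 0.05, and DESeq2 called 5.68% lower. Of the ribosomal genes, 70 had a negative log2 fold change (median -0.16), 15 were lower and 0 higher at an unadjusted p under 0.05, and DESeq2 called 4 lower. The 3 with the smallest p were Mrps27 (log2 fold change -0.44, SE 0.10, edgeR adjusted p = 0.0723), Mrps16 (-0.38, SE 0.10, edgeR adjusted p = 0.0827) and Mrpl34 (-0.43, SE 0.12, edgeR adjusted p = 0.0888), in each of which the groups did not overlap, as is likely in genes picked by smallest p. Of the translation factors, 4 were higher and 5 lower at an unadjusted p under 0.05 (median -0.05), and DESeq2 called 2 lower. Mrrf, which recycles mitochondrial ribosomes, had the smallest p among them, at 33.1, 33.8 and 34.2 CPM in NaCl and 26.8, 27.7 and 25.2 CPM in H89 (log2 fold change -0.41, SE 0.09, edgeR adjusted p = 0.0628).

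Of 44 assembly factors of the complexes, edgeR called 0, with 1 higher and 4 lower at an unadjusted p under 0.05 and a median log2 fold change of -0.03, and DESeq2 called 1 higher and 2 lower. Cox20, a chaperone of the COX2 protein, was at 40.3, 44.1 and 41.3 CPM in NaCl and at 61.7, 59.4 and 53.5 CPM in H89 (log2 fold change 0.41, SE 0.10, edgeR adjusted p = 0.0760). Its values were higher in all H89 tumors than in all NaCl tumors. Uqcc2 and Bcs1l, which act in building complex III, had log2 fold changes of -0.34 (SE 0.09, edgeR adjusted p = 0.0827) and -0.49 (SE 0.13, edgeR adjusted p = 0.0878).

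Genes of matrix enzymes, carriers and import are often read as measures of mitochondrial number. Of these 32 genes, edgeR called 0, with 1 higher and 10 lower at an unadjusted p under 0.05 and a median log2 fold change of -0.14, and DESeq2 called 6 lower. The shares over all genes were 13.1% higher and 11.9% lower at that p, and 5.68% lower by DESeq2. Mdh2, the malate dehydrogenase of the citric acid cycle, was at 469, 494 and 503 CPM in NaCl and at 384, 396 and 366 CPM in H89 (log2 fold change -0.42, SE 0.09, edgeR adjusted p = 0.0528). Timm50, a part of the import channel, had a log2 fold change of -0.35 (SE 0.09, edgeR adjusted p = 0.0856). Cs, the citrate synthase, chosen for its role after its values were seen, was at 389, 393 and 374 CPM in NaCl and at 372, 392 and 381 CPM in H89, with overlapping groups. Of 12 biogenesis regulators, edgeR called 0 and DESeq2 0, with 1 lower at an unadjusted p under 0.05 (median -0.01). That gene was Nrf1, a factor that drives nuclear genes for mitochondrial proteins, with a log2 fold change of -0.19 (SE 0.07, edgeR adjusted p = 0.168).

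Of 14 mitophagy genes, edgeR called 0, with 5 lower and 0 higher at an unadjusted p under 0.05 and a median of -0.17, and DESeq2 called 4 lower. The shares over all genes were 11.9% lower at that p and 5.68% lower by DESeq2. Sqstm1, the adaptor p62 that links cargo to autophagosomes, was at 538, 421 and 602 CPM in NaCl and at 264, 320 and 385 CPM in H89 (log2 fold change -0.77, SE 0.16, edgeR adjusted p = 0.0608). The groups did not overlap, and among the H89 tumors the value was lowest in tumor 1 and highest in tumor 3. Map1lc3b, which codes for an LC3 protein of the autophagosome membrane, had a log2 fold change of -0.33 (SE 0.09, edgeR adjusted p = 0.0888).

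**Figure D5:**
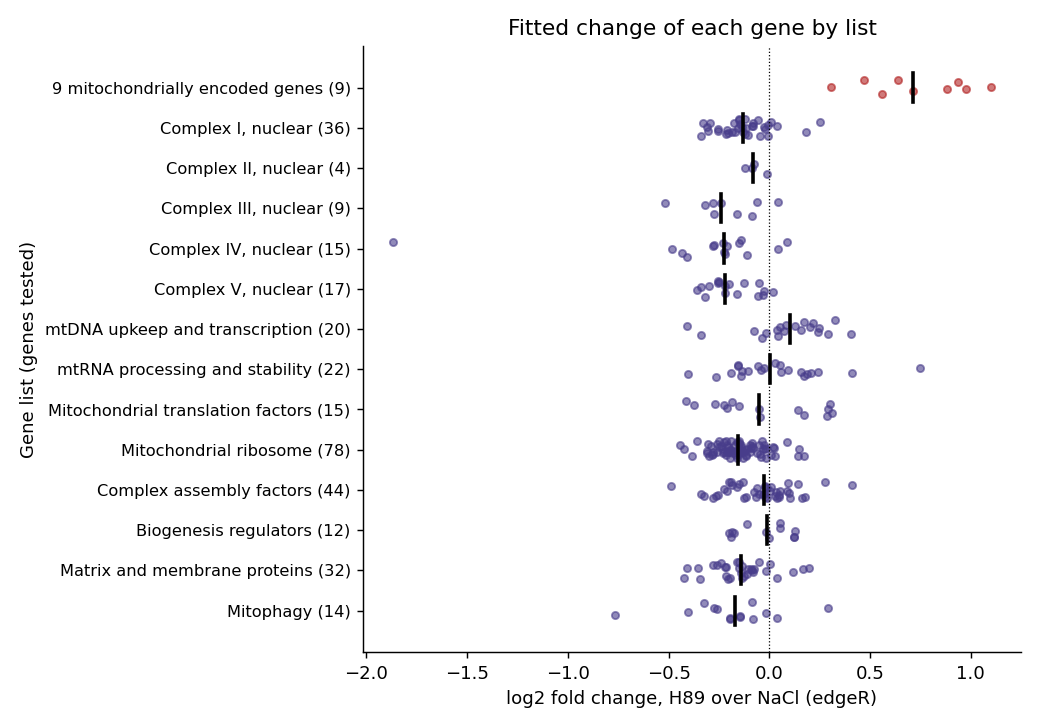
Fitted log2 fold change of H89 over NaCl (x axis) for each gene of the lists on the y axis, with the number of genes tested in brackets, 1 point per gene and a black bar at the median. The 9 mitochondrially encoded genes (red) lie between 0.31 and 1.10, and the medians of the nuclear lists (blue) lie between -0.24 and 0.10.

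The integrated stress response, run by the factor Atf4, is known to respond to defects of mitochondrial gene expression. Of its 13 genes, 1 was called lower and 0 higher, all 13 had negative log2 fold changes (median -0.50), 11 were lower at an unadjusted p under 0.05, and DESeq2 called 11 lower. Over all genes, edgeR called 0.724% lower, 11.9% were lower at an unadjusted p under 0.05, and DESeq2 called 5.68% lower. The gene called was Trib3, a pseudokinase induced by Atf4 and Ddit3, at 65.8, 77.4 and 96.5 CPM in NaCl and 38.5, 49.5 and 42.4 CPM in H89 (log2 fold change -0.95, SE 0.15, edgeR adjusted p = 0.0407). The groups did not overlap, H89 tumor 3 was between the other H89 tumors, and the call was lost when any 1 tumor was left out (edgeR adjusted p = 0.0667 to 0.142). Of 12 genes of hypoxia and glycolysis, 0 were called by edgeR or DESeq2 and 0 had an unadjusted p under 0.05. The 3 with the smallest p were Egln3, Adm and Car9. Egln3, an oxygen-sensing hydroxylase, had a log2 fold change of -0.78 (SE 0.43, edgeR adjusted p = 0.297) and Adm, the adrenomedullin gene, one of -0.67 (SE 0.37, edgeR adjusted p = 0.30). Car9, a carbonic anhydrase induced by hypoxia, ranged from 5.14 to 50.4 CPM in NaCl and from 19.2 to 92.0 CPM in H89, with the highest value in H89 tumor 1 (log2 fold change 1.20, SE 0.89, edgeR adjusted p = 0.430). All 3 overlapped between groups.

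Markers of cell types were summed in each tumor beside the mitochondrial counts. Sums for macrophage, neutrophil, B cell, endothelial and keratinocyte markers were also made and are not reported here. The 9 CT26 and colon epithelium markers summed to 366, 404 and 476 CPM in NaCl and to 253, 283 and 330 CPM in H89 tumors 1, 2 and 3. All H89 tumors were below all NaCl tumors, and those with a high mitochondrial share were the lowest. Of the 7 CT26 markers tested, edgeR called 0, with 4 lower and 0 higher at an unadjusted p under 0.05, and DESeq2 called 4 lower. Over all genes, 11.9% were lower at that p and 5.68% by DESeq2. The log2 fold change was positive in 3, Krt8, Cdh1 and Lgals4. Lgals4 alone was higher in all H89 tumors (6.66 to 8.63 CPM against 5.54 to 6.57 in NaCl). Lower in all H89 tumors were Krt18 (7.98 to 8.79 against 12.7 to 23.1 CPM), Areg (3.94 to 7.31 against 8.84 to 15.7) and Myc (147 to 168 against 191 to 202). Of all genes tested, 20.4% were higher and 10% lower in H89 without overlap. Myc and Ereg made up most of the sum in every tumor, with 191 and 144 CPM in NaCl tumor 1 and 157 and 71.4 CPM in H89 tumor 1. The summed level of 15 skeletal muscle markers was 8.31 to 9.08 CPM in NaCl and 35.9, 10.3 and 6.66 CPM in H89 tumors 1, 2 and 3. H89 tumor 1 was the only tumor with none of the 15 at a count of 0, and its Acta1, the actin of skeletal muscle, was at 12.1 CPM against at most 0.550 CPM elsewhere. H89 tumor 2, with nearly the same mitochondrial share as tumor 1, had 5 of the 15 muscle markers at 0 and Acta1 at 0.156 CPM. The 10 adipocyte markers summed to 11.4 to 34.9 CPM in NaCl and to 34.4, 20.6 and 14.3 CPM in H89. The 8 erythroid markers, mostly hemoglobin, summed to 94.4 to 162 CPM in NaCl and to 42.9, 33.6 and 352 CPM in H89, so the tumors with a high mitochondrial share were the lowest of the 6. The 10 T and NK cell markers, none of them at 0 in any tumor, summed to 20.8 to 88.9 CPM in NaCl and to 80.3, 54.8 and 189 CPM in H89. All 10 had positive log2 fold changes (median 1.25), and edgeR called 0. At an unadjusted p under 0.05, 5 were higher, and DESeq2 called 3 higher. In Cd8a and Ncr1 the groups did not overlap. Over all genes, 13.1% were higher at that p, 4.75% by DESeq2, and 20.4% without overlap. The 9 fibroblast markers summed to 2530 to 2680 CPM in NaCl and to 3613, 3613 and 3065 CPM in H89. All 9 had positive log2 fold changes (median 0.32), and edgeR called 0. Of these, 5 were higher at an unadjusted p under 0.05 and without overlap, and DESeq2 called 2 higher. The muscle sum of H89 tumor 2 was close to the NaCl range, and its adipocyte and T and NK cell sums were inside it. Its fibroblast sum was above the NaCl range, and its erythroid and CT26 sums were below it. The part of these cells in the mitochondrial values was not tested.

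The nuclear genes whose level followed the 9 mitochondrial genes most closely over the 6 tumors were found among 9387 nuclear genes with a mean of at least 10 CPM, by Pearson's r between log2 levels per 1000000 counts outside the 9 genes. With 6 tumors and so many genes, values of r near 1 are found readily, and they are given as a description. The highest r were those of Gtpbp3 (0.986), Oard1 (0.984), Sfswap (0.983), Pusl1 (0.983) and Plpp1 (0.980). Gtpbp3 codes for an enzyme that modifies mitochondrial tRNAs, and it was at 43.9, 46.3 and 44.9 in NaCl and at 50.9, 50.0 and 45.4 in H89. Sfswap, a splicing regulator, was at 74.2, 82.9 and 78.1 in NaCl and at 99.4, 92.8 and 78.0 in H89. Among the lowest r were those of Dcaf12 (-0.997), Igf2bp2 (-0.985), Slc41a1 (-0.981) and Nfil3 (-0.973). Igf2bp2, an RNA-binding protein, was at 88.2, 82.2 and 91.0 in NaCl and at 62.8, 69.8 and 92.9 in H89. Its value in H89 tumor 3 was just above the NaCl range, and selection by r favors genes in which that tumor is near the NaCl tumors. Nfil3, a transcription factor, was at 39.5, 34.4 and 43.8 in NaCl and at 20.7, 26.6 and 41.7 in H89. Between H89 and NaCl, the edgeR adjusted p-values of the genes named here ran from 0.105 to 0.982.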

How the data were processed

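Total RNA of 6 CT26 tumors, 3 from NaCl and 3 from H89 mice, was measured by bulk RNA sequencing, and groups and numbers came from the sample titles. The authors deposited 1 table of estimated counts per gene, 23557 genes by 6 tumors. It is named TPM, but the values of a tumor do not sum to 1000000. The submitters' processing notes name kallisto, DESeq2 and GRCm38, and their versions and the library preparation (selection of poly(A) RNA or removal of ribosomal RNA) are not given in the sources used here. An equal division of reads between identical sequences and a preparation by poly(A) tail can both affect mitochondrial counts.

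Counts were rounded to whole numbers. Testing used edgeR 4.0.16 (R 4.3.3) on 13118 genes whose mean reached 0.5 CPM (TMM, glmQLFit, glmQLFTest, treatment as the only term, Benjamini-Hochberg adjustment), and p-values come from that fit, or from its repeat with 1 tumor left out where so stated. CPM are per 1000000 counts of a tumor, without TMM. Standard errors were taken as the size of the log2 fold change over the square root of F. The alternatives were median ratio scaling, quantile normalization of log2(CPM + 0.5) with limma 3.58.1, library sizes without the 9 genes, a filter at 5 CPM or none, the replicate number as a block, each tumor left out, and DESeq2 1.42.0. The fit was checked on simulated counts. Each group holds 3 mice, which limits the precision more than the depth of 27067349 to 31958793 counts.

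The 9 genes and all gene lists were chosen with earlier results of these data known. Named were the 9 genes, of each nuclear list every gene called and otherwise up to 3 with the smallest p, and the 5 nuclear genes at each end of the correlation, of which 1 is not reported here. Polrmt, Tfam and Cs were added for their role after their values were seen. The markers of cell types named singly, such as Acta1, Lgals4, Myc and Cd8a, were picked outside this rule with their values known. Numbers were not used to pair the tumors. The correlation of deviations between same-numbered tumors was 0.16, 0.06 and -0.03, which cannot settle whether the numbers carry a pairing.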

Additional observations from a re-analysis of the deposited data

How the results depend on the processing

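The summed 9 genes were higher in H89 on average under every alternative tried for them (DESeq2 gave no value for the sum), with a log2 ratio of 0.55 by TMM, 0.42 by quantile normalization, and 0.30 to 0.94 when 1 tumor was left out (lowest without H89 tumor 1, highest without H89 tumor 3). The difference in their share was 2.04 to 4.99 percentage points when 1 tumor was left out. None of the 9 log2 fold changes turned negative in any setting. The 9 genes were chosen on a high share in some H89 tumors, and leaving out 1 tumor keeps at least 1 of those. The direction was thus largely set by the choice and is no independent support.

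Counts of called genes moved far more. Of all genes, 208 were called, against 80 by quantile normalization, 1392 by DESeq2, and 0 to 12 when 1 tumor was left out, 12 being without H89 tumor 3. Without the filter on low counts 311 were called. With the replicate number as a block, 0 genes were called. The numbers were taken only as labels, and not every tumor correlated best with the tumor of its own number (NaCl tumor 3 with H89 tumor 2, r = 0.35). Of 317 tested nuclear genes in the 9 lists on mitochondria, 1 was called higher and 1 lower. Lower calls were 4 by median ratio scaling, 5 without a filter, 0 with a mean of at least 5 CPM and 30 by DESeq2, which called 2 higher (5.68% and 4.75% over all its genes). Under the replicate block 0 were called in either direction, and 0 with any 1 tumor left out. The cause was not tested. With 3 tumors per group, of which 1 H89 tumor stood apart from the others in the mitochondrial share, neither its typical level under H89 nor its spread is known well.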
